A study of Homo sapiens with 4 samples.

Results

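The 50 genes described here build or serve cilia, and they were chosen by name and role from the axonemal dyneins, the central apparatus, other parts of the axoneme, intraflagellar transport, the BBSome, the transition zone and the basal body. They are 50 of the 20175 protein-coding genes of the annotation used. A peak belonged to a gene when that gene had the largest exon overlap with it on the same strand. By this rule the 50 genes held 102 of the 8070 listed m7G peaks of HL60 cells and 85 of the 8122 listed peaks of HL60/MX2 cells. HL60 is a human promyelocytic leukaemia line (genotype given as WT), and HL60/MX2 is its drug-resistant derivative, known for resistance to mitoxantrone. In m7G MeRIP-seq, fragmented mRNA is enriched with an antibody against N7-methylguanosine, here after the caps had been removed, and regions with more reads than expected are called as peaks. The series has 4 libraries, an enriched and an input library of each line, and the 2 peak lists came from 1 enriched library each. With 1 library per line no difference between the lines could be tested, and the 95% intervals given are exact Clopper-Pearson intervals that cover counting error only.

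Motile cilia and sperm flagella beat because axonemal dyneins, very large motor proteins, slide the outer microtubule doublets of the axoneme against each other. Outer dynein arms drive the beat, inner arms shape it, and the central apparatus and radial spokes regulate both. Intraflagellar transport carries parts along any cilium, with kinesin-2 moving outward and dynein-2 moving back, and the BBSome and transition zone control what enters and leaves. The transport and gating genes also serve the primary cilium that many cell types form. The axonemal dyneins and the central apparatus are known chiefly from multiciliated epithelia and sperm. The lists give positions and scores of peaks and no expression levels, so whether these mRNAs were abundant in either line cannot be read from them.

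In 5 genes a peak of one list overlapped a peak of the other on the same strand, and these are the positions of the module that both libraries share. Each lay in the coding sequence (CDS) of an internal exon. Their sequences are shown from the hg19 genome on the mRNA strand, spanning both peaks, with the bases common to both peaks in capitals and those of only one peak in lower case.
IFT88, exon 19, chr13:21212471-21212657, plus strand: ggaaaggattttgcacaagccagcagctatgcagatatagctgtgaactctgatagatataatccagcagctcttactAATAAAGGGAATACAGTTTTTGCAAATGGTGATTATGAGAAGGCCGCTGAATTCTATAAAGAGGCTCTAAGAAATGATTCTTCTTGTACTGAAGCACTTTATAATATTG
DNAH3, exon 29, chr16:21062991-21063142, minus strand: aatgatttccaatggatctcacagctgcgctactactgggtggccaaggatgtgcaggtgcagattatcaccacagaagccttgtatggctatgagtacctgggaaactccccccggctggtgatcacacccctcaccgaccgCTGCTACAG
HYDIN, exon 84, chr16:70852286-70852475, minus strand: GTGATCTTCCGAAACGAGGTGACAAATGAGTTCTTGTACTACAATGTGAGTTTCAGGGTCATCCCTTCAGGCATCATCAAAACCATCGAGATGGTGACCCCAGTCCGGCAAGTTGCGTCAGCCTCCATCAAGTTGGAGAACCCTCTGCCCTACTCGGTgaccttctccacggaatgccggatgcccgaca
DNAH6, exon 24, chr2:84846809-84847028, plus strand: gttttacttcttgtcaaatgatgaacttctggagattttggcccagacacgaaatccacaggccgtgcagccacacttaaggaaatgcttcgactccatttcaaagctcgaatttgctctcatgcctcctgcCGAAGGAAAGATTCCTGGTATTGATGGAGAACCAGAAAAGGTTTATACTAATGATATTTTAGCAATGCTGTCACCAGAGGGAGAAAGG
CFAP65, exon 28, chr2:219874090-219874182, minus strand: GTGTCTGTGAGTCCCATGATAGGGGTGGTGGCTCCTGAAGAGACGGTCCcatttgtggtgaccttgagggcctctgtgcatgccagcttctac

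The common stretch was 158 bp in HYDIN, 109 bp in IFT88, 88 bp in DNAH6, 49 bp in CFAP65 and 9 bp in DNAH3. In all 5 pairs the peaks had an end in common, which in each case was an end of the exon. Such common ends may come from cutting the intervals to exons, which was not tested. The HL60 peak of IFT88, which encodes a core subunit of the transport particle, covered its 187 bp exon whole, and the HL60/MX2 peak of DNAH6, an inner arm heavy chain, covered its 220 bp exon whole. The scores of these peaks were not extreme: they stood at percentile 92.9 and 68.7 of the HL60 and HL60/MX2 lists for IFT88, 82.3 and 88.4 for DNAH3, 49.0 and 15.9 for HYDIN, 59.9 and 41.6 for DNAH6, and 12.8 and 6.11 for CFAP65. The 5 genes are 10% of the 50, against 2.29% of all genes with a shared peak, but as a share of peaks the 5 made 4.90% (1.61 to 11.1) of the HL60 peaks in these genes and 5.88% (1.94 to 13.2) of the HL60/MX2 peaks. Over all assigned peaks the shares were 6.16% and 6.13%, so per peak the cilia genes were shared about as often as the lists as a whole.

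In the HL60 list 38 of the 50 genes held at least 1 peak (76%, 61.8 to 86.9), and in the HL60/MX2 list 35 did (70%, 55.4 to 82.1). The background over all 20175 genes was 26.4% for HL60 and 28.5% for HL60/MX2. Both lists had a peak in 28 of the 50 genes (56%, 41.3 to 70.0), against 12% of all genes. The HL60 list alone had a peak in 10 of them, ALMS1, CCDC40, CFAP43, CFAP47, CFAP74, DNAH9, DNAI3, IFT172, SPAG6 and WDR35, which is 20% against 14.4% of all genes. The HL60/MX2 list alone had a peak in 7, CEP290, CFAP46, DNAI4, DRC1, DYNC2I1, RPGRIP1L and RSPH4A, which is 14% against 16.5% of all genes. No peak was listed in DNAH1, DNAI2, IFT140, WDR19 or CCDC39, which include a heavy chain of 78 exons.

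**Figure D1:**
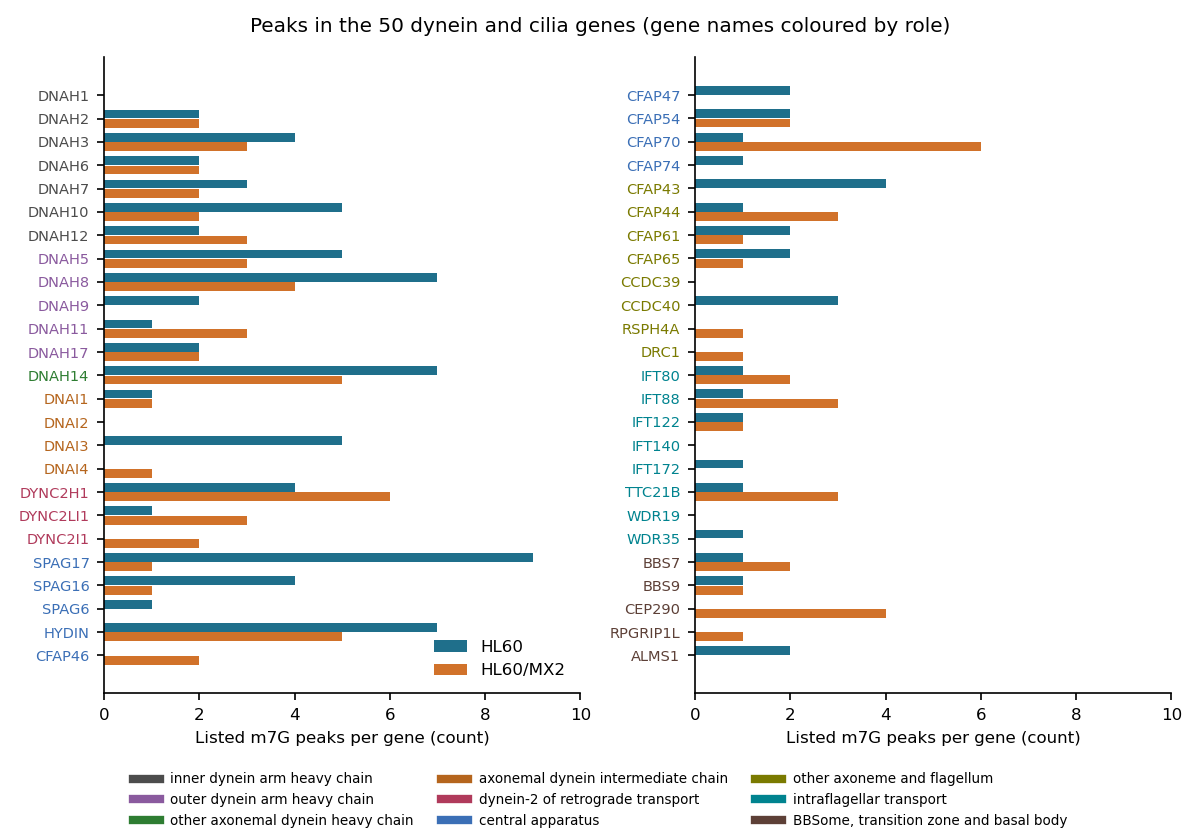
Listed m7G peaks in each of the 50 dynein and cilia genes, as a count on the horizontal axis, for HL60 (blue) and HL60/MX2 (orange), with gene names coloured by role. The longest bar is the 9 HL60 peaks of SPAG17, which had 1 in HL60/MX2, while CFAP70 had 1 and 6.

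Genes with many exons offer more places for a peak, and these genes are large, with a median of 35 exons in the transcript with the longest CDS. They were therefore set against the other protein-coding genes of like exon number. Of the 19 cilia genes with 51 or more exons, 16 had a peak in each list (84.2%), against 72.0% of the 157 other such genes in HL60 and 73.9% in HL60/MX2. The gap was wider among genes of 11 to 30 exons. With 11 to 20 exons, 7 of 11 cilia genes had a peak in each list (63.6%), against 32.5% and 36.1% of 4968 others. With 21 to 30 exons the counts were 8 and 7 of 10, against 45.8% and 48.8% of 1542 others. With 31 to 50 exons the lists parted, with 7 of 9 cilia genes in HL60 (77.8%, against 54.6% of 610 others) and 4 of 9 in HL60/MX2 (44.4%, against 56.9%).

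**Figure D2:**
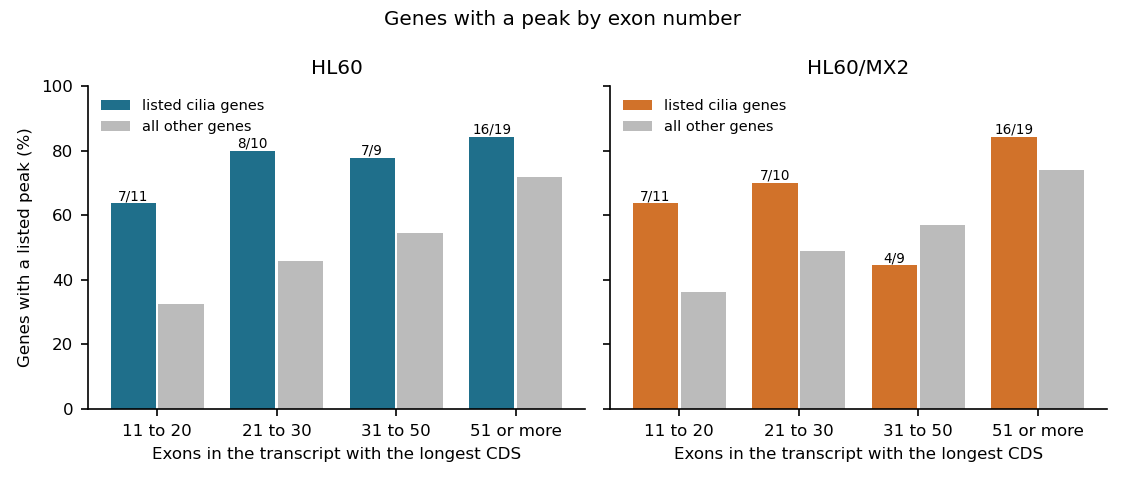
Percentage of genes with a listed peak in classes of exon number, for the listed cilia genes (coloured) and all other protein-coding genes (grey), HL60 on the left and HL60/MX2 on the right; the numbers above the bars are genes with a peak of genes in the class. The 1 cilia gene with under 11 exons is not drawn. The grey bars rise with exon number, and the cilia genes stand above them except at 31 to 50 exons in HL60/MX2 (4 of 9 genes).

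If each of the 50 genes is given the share of its exon class, the shares add up to 27.0 genes in HL60 and 28.3 in HL60/MX2, where 38 and 35 were found, and to 18.8 genes in both lists, where 28 were found. Counted per exon, the 2212 exons of the 50 genes had 4.61 peaks per 100 exons in HL60 and 3.84 in HL60/MX2, and other genes weighted to the same classes had 3.25 and 2.86. These are descriptions of 2 libraries, and since the module was picked with earlier results of the same lists in view they are not a test of it.

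The counts were higher in HL60 for the parts of the motile axoneme and in HL60/MX2 for the transport and gating genes. The 34 genes of dynein arms, central apparatus and other axoneme held 87 HL60 peaks and 57 HL60/MX2 peaks, and 18 of these genes had more in HL60, 8 more in HL60/MX2 and 8 the same number. Of the 144 peaks together, 60.4% (51.9 to 68.5) were from HL60, and without SPAG17 58.2% (49.4 to 66.7). The 16 genes of dynein-2, intraflagellar transport, BBSome, transition zone and basal body had 15 and 28 peaks, with 3 genes higher in HL60 and 9 in HL60/MX2. Of those 43 peaks 34.9% (21 to 50.9) were from HL60, and without CEP290 38.5% (23.4 to 55.4). Over all genes 49.8% of 15542 assigned peaks were from HL60, and over the other genes with 51 or more exons 54.4% (50.6 to 58.2), a value inside the interval of the motile axoneme. The grouping of roles into these 2 sets was made after the counts were seen. Peaks of 1 gene are not independent of each other, so the intervals are narrower than the spread between genes would allow. Each listed peak also carries a running number, which rises along its list with gaps. By estimate, about 3510 such numbers fell within the 50 genes for HL60 and 2876 for HL60/MX2. Per 100 numbers, these genes held 2.91 and 2.96 listed peaks. The whole HL60 list held 8070 peaks with a highest number of 942541, and the HL60/MX2 list 8122 with 780326. Over the whole lists, HL60 thus also had more numbers, and it had fewer listed peaks per number than HL60/MX2. Numbers per kb were higher in HL60 for SPAG17 (0.427 against 0.290), but also for CFAP70 (0.341 against 0.290), which had more HL60/MX2 peaks. What the numbers count was not tested.

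Among the axonemal dynein heavy chains, which hold the motor domain, the HL60 list held a peak in 12 of 13 genes and the HL60/MX2 list in 11 of 13, with 42 and 31 peaks. DNAH14, a heavy chain without an assigned place in the arms here, had the most, 7 in HL60 and 5 in HL60/MX2. Its HL60 peaks all lay from exon 59 to exon 83 of 86, including neighbouring exons 75 and 76 and again 82 and 83, while its HL60/MX2 peaks lay in exons 19, 33, 55, 74 and 80. None overlapped, and the closest peaks of the 2 lists were 197 nt apart on the mRNA.

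The outer arm heavy chains DNAH5, DNAH9 and DNAH11 serve motile cilia, and DNAH8 and DNAH17 serve sperm flagella. DNAH8 had 7 HL60 peaks, in exons 16, 54, 60, 71, 81, 83 and 89 of 93, and 4 HL60/MX2 peaks, in exons 2, 10, 18 and 93. The stretch between exons 54 and 89, thus held HL60 peaks alone, and the HL60/MX2 peaks lay toward both ends. DNAH5, whose loss causes primary ciliary dyskinesia, had 5 HL60 peaks, in exons 33, 66, 68, 75 and 79 of 79, and 3 HL60/MX2 peaks, in exons 38, 44 and 79. Both lists thus had a peak in its last exon, of 1808 bp, but without overlap: the HL60/MX2 peak lay in the CDS and the HL60 peak covered the last 115 bases of the 3′UTR. DNAH11 had 1 HL60 peak, in exon 46 of 82, and 3 HL60/MX2 peaks, in exons 50, 54 and 55, of which that over the whole of exon 54 scored 860.84. DNAH17 had 2 and 2, and DNAH9 had 2 and 0 peaks.

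Over 7 genes, the inner arm heavy chains held 18 HL60 peaks and 14 HL60/MX2 peaks. DNAH10 had 5 HL60 peaks, in exons 44, 48, 51, 60 and 63 of 79, and 2 HL60/MX2 peaks, in exons 19 and 20. No peak of one line fell among those of the other in this gene, and the nearest pair was 3970 nt apart. DNAH3 had HL60 peaks in exons 23, 28, 29 and 47 and HL60/MX2 peaks in exon 29 and, both in the same 2142 bp exon, in exon 53. This was the only exon of the 50 genes with more than 1 peak in a list. DNAH12 had HL60 peaks in exons 17 and 54 of 58 and HL60/MX2 peaks in exons 2, 41 and 50, that of exon 2 in the class within 100 nt of the start codon. DNAH6 had HL60 peaks in exons 22 and 24 of 77 and HL60/MX2 peaks in exons 24 and 72. DNAH2 had 2 in each list, DNAH7 had 3 and 2, and DNAH1 had none.

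**Figure D3:**
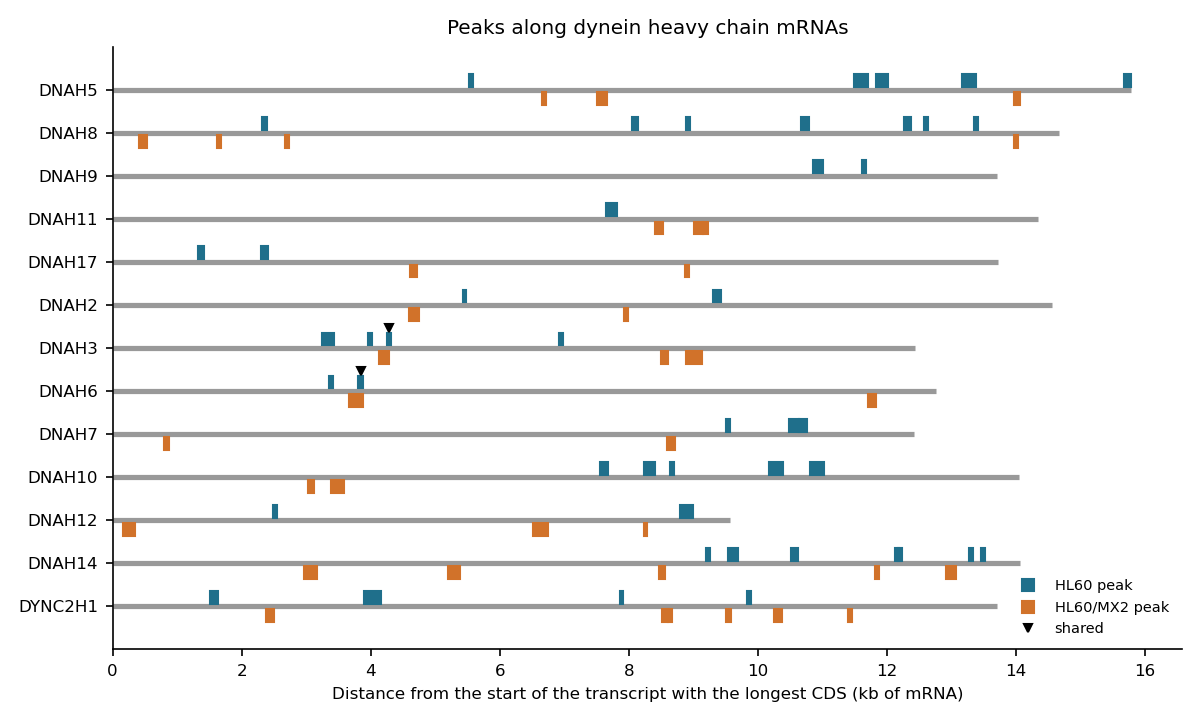
Peaks along the mRNAs of 12 axonemal dynein heavy chains with a peak and of DYNC2H1, in kb from the start of the transcript with the longest CDS; HL60 peaks are drawn above the line, HL60/MX2 peaks below it, triangles mark overlapping peaks, and peaks too short to see are widened. Only DNAH3 and DNAH6 carry a triangle, and in DNAH10 the 2 lists occupy separate parts of the mRNA.

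The intermediate chains anchor a dynein arm to its doublet. DNAI3, an inner arm intermediate chain, had 5 peaks in HL60 and none in HL60/MX2. They lay in exons 1, 2, 12, 18 and 23 of 23, as pieces of 52, 4, 87, 12 and 284 bp, with scores of 510.17, 195.42, 55.77, 346.9 and 99.39. Its peaks in exons 1 and 2 met at the splice junction. DNAI4, its partner in the same arm, had the reverse pattern, with 1 peak in HL60/MX2 only. The outer arm chain DNAI1 had 1 peak in each list, in exon 12 for HL60 and in the 5′UTR of exon 1 for HL60/MX2, and DNAI2 had none.

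The central apparatus genes held 27 HL60 peaks and 17 HL60/MX2 peaks. SPAG17 (chr1:118496213-118727851, minus strand), a large scaffold of the central pair, showed the widest gap of the 50 genes, with 9 HL60 peaks against 1 HL60/MX2 peak. The HL60 peaks were spread over exons 2, 5, 19, 22, 26, 33, 35 and 36 of 49, with 1 more in an exon outside that transcript, and scored from 69.86 to 656.62. The HL60/MX2 peak was a piece of 17 bp in exon 10 with a score of 167.7. HYDIN, a central pair protein of 86 exons, had 7 HL60 peaks, in exons 6, 30, 48, 66, 73 and 84 with 1 more outside that transcript, and 5 HL60/MX2 peaks, in exons 12, 24, 46, 69 and 84. Its HL60 peaks in exons 6 and 48 covered whole exons and scored 1411.8 and 904.86. HYDIN has a near-identical copy elsewhere in the genome, HYDIN2, so the reads of the copies may not be told apart. SPAG16 had 4 HL60 peaks, in exons 5, 14 and 15 of 16 and in 1 exon of another transcript, and 1 HL60/MX2 peak, in exon 3. SPAG6 had 1 and 0 peaks, CFAP47 had 2 and 0, and CFAP54 had 2 in each list.

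CFAP70 went the other way, with 1 peak in HL60, over the whole of exon 20, and 6 in HL60/MX2. The HL60/MX2 peaks lay in exons 10, 12, 15 and 16 of 28, with 2 more in exons outside that transcript, and that of exon 15 scored 974.54 (percentile 94.0). CFAP46 had 2 peaks in HL60/MX2 only, one in exon 8 of 58, the other outside that transcript. The latter began at the first base of the gene (chr10:134756297-134756327, minus strand) with a score of 1158.51 (percentile 95.7). CFAP74 had 1 peak in HL60 only, a piece of 20 bp at the 3′ end of exon 2 with a score of 1427.28, the highest of the 102 HL60 peaks (percentile 99.3).

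Of the other axoneme genes, CFAP43, which acts in the sperm axoneme, had 4 peaks in HL60 and none in HL60/MX2, in exons 5, 19 and 27 of 38 and in 1 exon of another transcript. Its partner CFAP44 had 1 and 3. CCDC40, part of the molecular ruler that spaces the axonemal complexes, had 3 and 0, 1 of them in exon 20 of 20 over the last 144 bases of its 3′UTR and 2 in exons of other transcripts, and its partner CCDC39 had none. CFAP61 and CFAP65 had 2 and 1 peaks each, those of CFAP65 in exons 26 and 28 of 35 for HL60 and in exon 28 for HL60/MX2. The radial spoke head gene RSPH4A and the nexin-dynein regulatory complex gene DRC1 each had 1 peak in HL60/MX2 only.

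**Figure D4:**
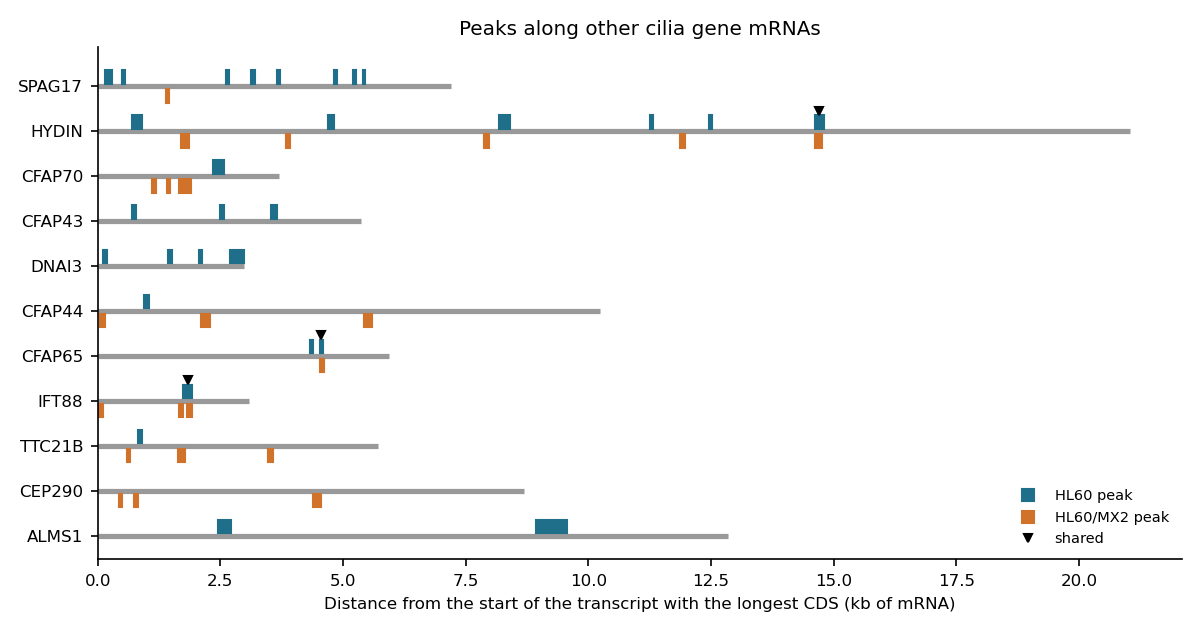
Peaks along the mRNAs of 11 other cilia genes, drawn as for the dyneins. HL60 peaks crowd SPAG17, CFAP43 and DNAI3, HL60/MX2 peaks crowd CFAP70 and CEP290, and triangles mark the overlaps in HYDIN, CFAP65 and IFT88.

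All 3 genes chosen for the module from dynein-2, the motor that returns transport particles to the cell body, had more peaks in HL60/MX2. DYNC2H1, its heavy chain, had 4 in HL60 (exons 10, 26, 48 and 63 of 90) and 6 in HL60/MX2 (exons 16, 52, 53, 60, 67 and 77). The HL60 peak over the whole of exon 10 scored 1356.13 (percentile 99.2). The light intermediate chain DYNC2LI1 had 1 HL60 peak, in exon 6 of 13, and 3 HL60/MX2 peaks, in exons 1, 4 and 5. That of exon 1 began at the first base of the gene and scored 978.45. The intermediate chain DYNC2I1 had 0 and 2, in neighbouring exons 4 and 5.

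Of the transport particle genes, IFT88 and TTC21B each had 1 HL60 peak and 3 HL60/MX2 peaks, those of IFT88 in exon 19 of 28 and in exons 1, 18 and 19. IFT80 had 1 and 2, IFT122 had 1 and 1, and IFT172 and WDR35 had 1 in HL60 only. BBS7 and BBS9, subunits of the BBSome, had 1 and 2 and 1 and 1 peaks. CEP290, which links the transition zone microtubules to the membrane, had 4 peaks in HL60/MX2, in exons 4, 9 and 31 of 56 and in 1 exon of another transcript, and none in HL60. RPGRIP1L, of the same zone, had 1 in HL60/MX2. ALMS1, of the basal body, had 2 peaks in HL60 only, of 268 and 644 bp, in its exons 8 and 10 of 6105 and 1865 bp.

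In all, 13 of the 50 genes had 3 or more peaks in HL60 (26%, against 2.47% of all genes) and 14 in HL60/MX2 (28%, against 2%). HL60 had at least 3 more peaks in 7 genes, SPAG17, DNAI3, CFAP43, CCDC40, DNAH10, DNAH8 and SPAG16 (14%, against 1.19% of all genes). HL60/MX2 had at least 3 more in 2, CFAP70 and CEP290 (4%, against 0.763%). The background shares are over genes of all exon numbers.

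Within the mRNA, peaks of the cilia genes sat in the CDS. Of the peaks that could be placed on the transcript with the longest CDS, 86 of 96 in HL60 (89.6%, 81.7 to 94.9) and 71 of 79 in HL60/MX2 (89.9%, 81.0 to 95.5) had most of their overlap there. Over all assigned peaks the shares were 64.1% and 59.9%, and over the other genes with 51 or more exons 93.1% and 91.6%, values nearer to those of the cilia genes. In HL60, 4 peaks lay in a 3′UTR, in DNAH5, IFT80, WDR35 and CCDC40, and none of the 79 HL60/MX2 peaks did, which allows a share of up to 4.56%. The 4 made 4.17% (1.15 to 10.3) of the HL60 peaks. Of all assigned peaks 21% and 18.2% lay in a 3′UTR, and of those in the other genes with 51 or more exons 3.14% and 4.36%. Peaks in the first exon of that transcript were few, DNAI3 and BBS9 in HL60 and DNAI1, DYNC2LI1, IFT88 and BBS7 in HL60/MX2. The CFAP46 peak at the first base of its gene lay outside that transcript and is not among them.

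Along the mRNA, 14.6% of the HL60 peaks (8.21 to 23.3) lay in the first 20% of the mRNA and 29.2% (20.3 to 39.3) from 60% to 80% of its length. Of the HL60/MX2 peaks 31.6% (21.6 to 43.1) lay in the first 20% and 21.5% (13.1 to 32.2) from 60% to 80%, and these intervals overlap those of HL60. From 60% to 80%, all assigned peaks had 14.6% and 13.2%, and the other genes with 51 or more exons 17.4% and 17.8%. A lean toward the 5′ end in HL60/MX2 was also present in all assigned peaks, at 28.3% and 35.0% for the first 20%, and it was smaller in the other genes with 51 or more exons, at 19.7% and 23.8%. In genes with peaks in both lists, the nearest peak of the other list was a median of 946.5 nt away for HL60 peaks and 778 nt for HL60/MX2 peaks.

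The listed intervals may have been cut to exons, which was not tested, and most peaks stopped at an exon end. One or both ends fell on one in 91.2% of the HL60 peaks (83.9 to 95.9) and 91.8% of the HL60/MX2 peaks (83.8 to 96.6), against 70.6% and 71.5% of all assigned peaks and 89.6% and 91.1% in the other genes with 51 or more exons. Where 1 end did so, AG stood before 42 of 42 HL60 peaks and 26 of 28 HL60/MX2 peaks at the 5′ end of an exon, and GT after 20 of 23 and 37 of 37 at the 3′ end. These peaks were picked by annotated exon ends, which carry splice letters inside a gene, so the counts say nothing about the peaks themselves. Peaks that covered an exon exactly made 27.5% (19.1 to 37.2) in HL60 and 15.3% (8.40 to 24.7) in HL60/MX2. All assigned peaks had 23.5% and 20.8%, and the other genes with 51 or more exons 37.1% and 31.2%, of which the first lies at the edge of the HL60 interval. Neighbouring exons both held a peak 8 times among 96 exons with a peak in HL60 and 7 times among 78 in HL60/MX2. In the other genes with 51 or more exons this occurred 6 times among 341 and 10 times among 294, and over all genes 226 times among 6342 and 235 times among 6450. The counts of the cilia genes include pairs in genes with fewer exons, such as DNAI3, SPAG16 and CFAP70, so the sets are unlike in exon number. Some neighbouring peaks of the cilia genes met at the splice junction. In HL60 this held for DNAI3, DNAH7, CFAP54, SPAG16 and exons 75 and 76 of DNAH14. In HL60/MX2 it held for DNAH11, DYNC2H1, DYNC2I1 and DYNC2LI1. Each such piece counts as a peak of its own in the totals per gene.

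Peaks that stop at an exon end can be very short. The cilia genes had a median peak length of 92 bp in HL60 and 102 bp in HL60/MX2, against 128 and 132 bp over all assigned peaks and 103 and 98 bp in the other genes with 51 or more exons. Peaks under 10 bp numbered 8 in HL60 (7.84%, 3.45 to 14.9) and 3 in HL60/MX2 (3.53%, 0.734 to 9.97), against 2.80% and 2.43% of all assigned peaks and 3.47% and 4.14% in those large genes. Some of these pieces are shown here because they count as peaks in the totals above, including 4 of the 9 in SPAG17. A DNAH8 piece of 14 bp, the HL60/MX2 peak with the highest score, is shown as well. Those of DNAI3 exon 2 (4 bp), DNAH3 exon 29 (9 bp) and DYNC2LI1 exon 5 (5 bp) are left out of these lines. Each line gives 15 bases on either side in lower case, with the listed peak in capitals, on the mRNA strand of hg19.
SPAG17, HL60, exon 5, 5′ end, chr1:118644528-118644564: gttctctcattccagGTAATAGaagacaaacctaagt
SPAG17, HL60, exon 26, 5′ end, chr1:118570995-118571032: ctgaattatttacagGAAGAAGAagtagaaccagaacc
SPAG17, HL60, exon 33, 5′ end, chr1:118539344-118539381: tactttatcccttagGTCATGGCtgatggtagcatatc
SPAG17, HL60, exon 36, 3′ end, chr1:118535074-118535112: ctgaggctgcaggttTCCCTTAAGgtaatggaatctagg
DNAH6, HL60, exon 22, 5′ end, chr2:84838783-84838815: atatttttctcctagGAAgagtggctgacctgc
DNAH10, HL60, exon 51, 5′ end, chr12:124366157-124366187: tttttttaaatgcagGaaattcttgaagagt
DYNC2H1, HL60/MX2, exon 77, 3′ end, chr11:103173961-103173997: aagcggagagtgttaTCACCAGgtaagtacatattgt
DNAH12, HL60/MX2, exon 50, 3′ end, chr3:57348507-57348541: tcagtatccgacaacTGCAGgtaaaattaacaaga
DNAH8, HL60/MX2, exon 10, 3′ end, chr6:38723827-38723870: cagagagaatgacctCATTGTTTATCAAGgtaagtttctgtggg

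Pieces at a 5′ exon end follow an ag and those at a 3′ exon end precede a gt, the letters of the splice sites. This follows from the use of annotated exon ends. The DNAH10 peak is 1 base and the DNAH6 peak 3 bases long. Short pieces could have high scores. If they were cut from longer intervals, the scores may be those of the longer intervals, which was not tested. The DNAH8 piece of 14 bp had a score of 1888.79, the highest of the 85 HL60/MX2 peaks (percentile 98.6), and the pieces of SPAG17 exon 33 and DNAH12 exon 50 stood at percentiles 87.1 and 73.8.

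**Figure D5:**
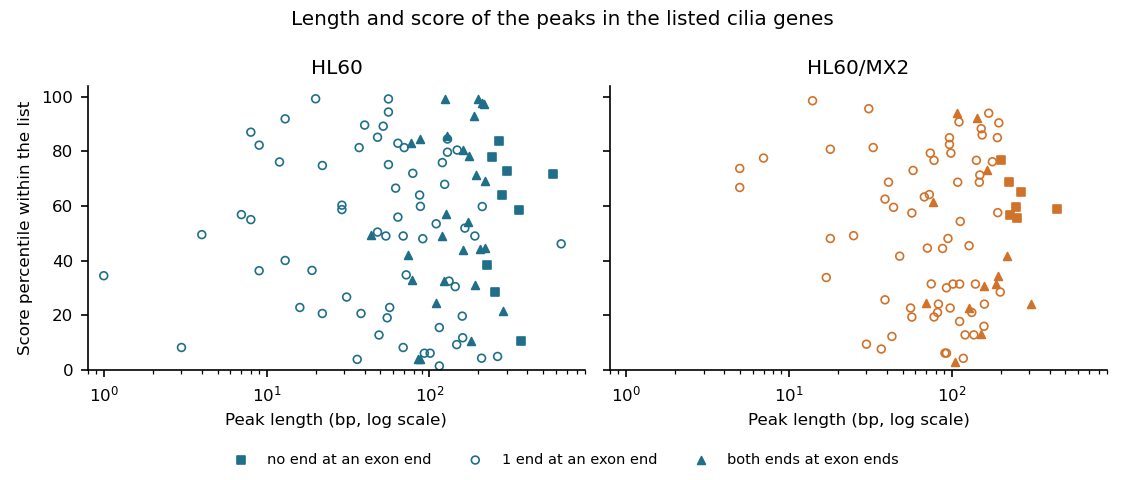
Length (bp, log scale) against score percentile within the list for the 102 HL60 and 85 HL60/MX2 peaks of the cilia genes; circles have 1 end at an exon end, triangles both and squares neither. Lengths run from 1 to 644 bp in HL60 and from 5 to 445 bp in HL60/MX2, and short pieces occur at high as well as low percentiles.

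The scores, whose scale is not given in the sources used here and which were read only within a list, were ordinary. The median percentile was 52.7 in HL60 and 54.4 in HL60/MX2, beside 51.1 and 54.0 in the other genes with 51 or more exons. The median GC content of the peaks was 44.4% and 42.7%, against 45.2% and 48.1% over all assigned peaks and 47.1% and 47.9% in the other genes with 51 or more exons. The letters GGAAA or GGAAG, searched on the mRNA strand only, occurred in 40.2% (30.6 to 50.4) and 43.5% (32.8 to 54.7) of the peaks. Of all assigned peaks 43.7% and 43.0% held them, and in the other genes with 51 or more exons 36.8% and 33.4%.

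The exons with a peak were somewhat longer than those without, here as in other large genes. Their median length was 159.5 bp in HL60 and 163 bp in HL60/MX2, against 146 bp for the 2044 exons of the 50 genes without a peak. In the other genes with 51 or more exons the medians were 136 and 151 bp against 129 bp. Of the exons over 189 bp, 5.58% (3.79 to 7.86) had a peak in HL60 and 5.39% (3.64 to 7.65) in HL60/MX2, and of those up to 114 bp 3.19% (1.9 to 4.99) had one in each list. The other large genes had 4.2% and 4.15% over 189 bp, and 2.61% and 2.15% up to 114 bp. A peak of both lists occurred in 6 exons of 2212.

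The wider family of cilia genes stood closer to the background. Of 139 other cilia genes taken from lists of the same systems, with a median of 13 exons, 56 had a peak in HL60 (40.3%, 32.1 to 48.9) and 48 in HL60/MX2 (34.5%, 26.7 to 43.1), with 84 and 67 peaks. The background was 26.4% and 28.5% of all genes, and 32.5% and 36.1% of genes with 11 to 20 exons. The split by role was less clear in these lists. The 48 other axoneme genes, among them AK7, CFAP221, CFAP300, CFAP418 and CFAP53, had 30 and 19 peaks, 61.2% (46.2 to 74.8) from HL60. The 17 other transport and dynein-2 genes had 5 and 13, 27.8% (9.69 to 53.5) from HL60, with a peak in 4 genes for HL60 and 9 for HL60/MX2, the 5 found only there being IFT22, IFT27, IFT46, IFT52 and IFT81. Both intervals include the 49.8% of all genes. The 43 other transition zone, basal body and ciliopathy genes had 39 and 28 peaks and the 11 other BBSome genes 6 and 3, with the higher count in HL60. The 22 other axonemal dynein chains and assembly factors had 6 and 7. Kinesins, the opposite motors, had a peak in 20 and 22 of 39 genes (51.3%, 34.8 to 67.6, and 56.4%, 39.6 to 72.2), with 35 and 30 peaks. Their median was 21 exons, and of the 1542 genes outside the 50 with 21 to 30 exons 45.8% and 48.8% had a peak. Cytoplasmic dynein-1, which acts in the cell body, had a peak in 3 and 3 of 11 genes (27.3% in each list), with 3 and 6 peaks.

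The identity of the lines could not be checked, since marker genes are read here only as peaks and not as levels. Of 9 promyelocyte markers 1 had a peak in each list, CTSG in HL60 and CD33 in HL60/MX2, while MPO and ELANE had none. Of 14 genes that mark multiciliated cells, 3 had a peak in HL60 (RFX2, RFX3 and TP73) and 6 in HL60/MX2 (the same 3 with MCIDAS, MYB and TEKT1), and the master regulator FOXJ1 had none in either. The shares were 11.1% (0.281 to 48.2) in each list for the first set, and 21.4% (4.66 to 50.8) and 42.9% (17.7 to 71.1) for the second, and all 4 intervals include the 26.4% or 28.5% of all genes. MYB is also active in blood progenitors.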

How the data were processed

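The 2 enriched libraries used were 1 of HL60 and 1 of HL60/MX2 cells, each as a 6-column peak list on hg19. Per the labels and methods of the study, adapters were removed by the authors with Cutadapt (1.9.3), reads were aligned with HISAT2 (2.0.4) and peaks called with MACS, of which they kept those over exons of protein-coding genes. The version and settings of MACS and the scale of the deposited score are not given in the sources used here. The lists hold no read counts: depth is unknown, and precision is limited by how many peaks there are. The input libraries were not analysed here.

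The build was checked by the length of chromosome 1 (249250621 bp in the reference, with no listed peak ending beyond it). Genes were those of GENCODE release 44 placed on GRCh37. A peak was given to the gene with the largest same-strand exon overlap, and peaks of the 2 lists counted as shared from 1 bp of same-strand overlap. Region, exon number and mRNA position came from the transcript with the longest CDS, with 100 nt on either side of each start and stop codon as classes of their own. In each list 6 peaks of the 50 genes lay outside that transcript. Genes were compared within 6 classes of exon number. Features of peaks were set beside all assigned peaks and the other genes with 51 or more exons, a class with 19 of the 50 genes. Score percentiles were taken within a list.

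The 50 genes, the lists of other genes and the measures were chosen with earlier results of these data known. Every gene of the 50 is named, and exons are given for genes with a shared peak, the 10 with the most peaks, those differing by 3 or more peaks and those with the 5 highest scores of a list. Exons are also given for some genes outside these rules, such as ALMS1, DNAI1 and DYNC2I1. Symbols missing from GENCODE were matched through RefSeq synonyms, and IFT70A, which matched 2 genes, was left out. Alternatives were tried for gene assignment, peak length, score, overlap, exon classes and region. The steps were tested on simulated data. Python 3.11.15, numpy 2.4.6, scipy 1.17.1, pysam 0.24.0 and matplotlib 3.10.9 were used.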

Additional observations from a re-analysis of the deposited data

How the results depend on the processing

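Of 53 values under alternatives, 45 stayed within 1.5 times the reported count or inside the interval of the reported value, 8 moved further and 0 changed direction. Most of them are counts or percentages that have no direction to change, and a cut at the median score lowers counts by construction. With only peaks at or above the median score of their list, 16 of the 50 genes had a peak in both lists, the peaks numbered 53 in HL60 and 43 in HL60/MX2, and 2 were shared. With peaks of at least 50 bp, 3 were shared, and also 3 when the overlap had to cover at least 50% of both. When any isoform could place a peak, with start and stop codons first, the CDS held 74.5% of the HL60 and 74.7% of the HL60/MX2 peaks, since this construction takes peaks out of the CDS. Classes of exon length in place of exon number gave sums of 21.1 and 22.5 genes. The share of HL60 peaks without SPAG17 or CEP290 was chosen after seeing the data. No paired analysis was possible because the lists come from 1 library per line and no test was made. No replicate could be left out for the same reason, and the depth limits every peak to an unknown extent.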
